A study of Mus musculus with 7 samples.

Results

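Gata2 encodes a zinc finger transcription factor, and the open chromatin of its locus was followed here in HPC7, a mouse hematopoietic progenitor cell line that grows in the presence of stem cell factor. Members were all open chromatin regions (OCRs) that overlapped the Gata2 gene body or the 150 kb on either side of it, and they were taken from the ATAC-seq peak lists of 7 bulk libraries of this line. ATAC-seq uses the Tn5 transposase to cut and tag DNA that is not wrapped up in nucleosomes, and sites that are open therefore collect more sequenced fragments. All 7 libraries, HPC7-1, HPC7-2 and HPC7-4 to HPC7-8, are of 1 line and were treated as 1 condition, from separate culture batches, with no genotype or treatment named in the labels and no control group. After merging over the libraries, 67 of the 144931 OCRs of the genome were members. As bulk libraries, they cannot tell fewer cells with an open site apart from less opening of that site per cell.

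GATA2 binds GATA motifs and is required for the formation and upkeep of hematopoietic stem and progenitor cells and for mast cells. The gene is known to have an upstream start, used mainly in blood and neural cells, and a downstream start with broader use. Its distal elements in blood are named by their distance in kb from the upstream start: a far upstream enhancer at -77 kb, sites bound by GATA factors at -3.9, -2.8 and -1.8 kb, and an intronic enhancer at +9.5 kb in which an E-box lies beside a GATA motif. The counterpart of the -77 kb enhancer in people is moved next to another gene by an inversion found in myeloid leukemia.

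Gata2 lies on the + strand at chr6:88193891-88207032 (mm10, GENCODE M21), over 13.1 kb, and with its flanks the window spanned 313 kb. GENCODE M21 gives 5 transcripts with 4 distinct starts. The upstream start is at 88193891, the downstream start at 88198334 (+4.44 kb), and the other two, at 88200919 and 88204445, begin transcripts with retained introns. Distances below are counted from the upstream start, negative upstream, to the median summit of an OCR over the libraries.

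The sequences that the results turn on are shown from the + strand of RefSeq GRCm38.p6, which is the mm10 build. Those of the OCRs are the 300 bases around the median summit. Those of the starts are the 250 bases before them. Capitals mark matches on either strand to AGATAA or TGATAA for GATA factors, to CATCTG or CAGCTG for E-box proteins, to TGTGGT for RUNX factors and to CCGGAA or CAGGAA for ETS factors. A match is a description of the letters and not a bound site. The -77 kb enhancer is shown because its OCR was the highest of the locus (chr6:88116879-88117178).
The -77 kb element: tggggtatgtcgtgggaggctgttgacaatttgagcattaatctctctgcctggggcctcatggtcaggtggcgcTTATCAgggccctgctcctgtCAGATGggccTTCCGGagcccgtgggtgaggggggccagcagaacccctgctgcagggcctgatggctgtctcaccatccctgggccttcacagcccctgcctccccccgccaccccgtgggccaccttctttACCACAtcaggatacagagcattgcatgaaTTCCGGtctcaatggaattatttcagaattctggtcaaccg
The +9.5 kb enhancer is shown for its composite of E-box and GATA motif, CATCTG and AGATAA with 8 bases between them (chr6:88202968-88203267).
The +9.5 kb element: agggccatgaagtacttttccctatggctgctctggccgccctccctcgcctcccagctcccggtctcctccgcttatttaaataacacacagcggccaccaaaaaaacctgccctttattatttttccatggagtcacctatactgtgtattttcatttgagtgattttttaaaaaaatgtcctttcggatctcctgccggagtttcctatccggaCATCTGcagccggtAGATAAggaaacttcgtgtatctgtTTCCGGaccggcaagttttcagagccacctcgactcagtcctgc
The OCR at -118.6 kb is shown as the second highest of the locus (chr6:88075136-88075435).
The -118.6 kb OCR: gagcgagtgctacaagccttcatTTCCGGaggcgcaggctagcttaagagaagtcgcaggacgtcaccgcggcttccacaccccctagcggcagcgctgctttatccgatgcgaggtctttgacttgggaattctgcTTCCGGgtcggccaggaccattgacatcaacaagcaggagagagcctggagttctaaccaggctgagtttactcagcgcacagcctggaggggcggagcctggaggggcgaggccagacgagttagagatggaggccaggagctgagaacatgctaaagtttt
The bases before the upstream start are shown because no OCR covered this start (chr6:88193641-88193890), and those before the downstream start because it was covered in all 7 libraries (chr6:88198084-88198333).
Upstream start: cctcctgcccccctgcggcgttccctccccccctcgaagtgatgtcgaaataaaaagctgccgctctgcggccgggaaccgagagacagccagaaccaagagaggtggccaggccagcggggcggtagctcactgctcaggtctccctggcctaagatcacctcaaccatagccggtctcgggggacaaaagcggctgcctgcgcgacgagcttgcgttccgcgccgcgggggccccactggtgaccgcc
Downstream start: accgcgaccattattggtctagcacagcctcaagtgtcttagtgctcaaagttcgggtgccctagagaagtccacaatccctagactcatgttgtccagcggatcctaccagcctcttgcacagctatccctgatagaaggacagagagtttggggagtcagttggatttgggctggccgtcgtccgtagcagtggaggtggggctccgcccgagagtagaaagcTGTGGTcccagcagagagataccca
The bases before the upstream start held 22 CpG dinucleotides and no match to the motifs searched. Those before the downstream start held 9 CpG dinucleotides and 1 match, to TGTGGT.

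Each OCR is described by its fold enrichment as the peak caller gave it, which is the reads at the summit plus 1 over the background plus 1, and by the percentile of that value among all OCRs of its own library. The 7 lists held between 84593 (HPC7-6) and 132852 (HPC7-1) OCRs. Every fold enrichment was a whole multiple of 1 step in its library (tolerance 0.05 steps), from which the background was computed as 20.4 reads in HPC7-1 and between 4.44 and 7.45 reads in the other libraries. The weakest OCR listed therefore had a fold enrichment of 1.68 in HPC7-1 and between 2.13 and 2.44 elsewhere. The narrowest OCR listed was 200 bp in every library. A site without an OCR was not necessarily below these limits of fold enrichment, and it is not shown to be closed. Promoters of 8 genes of blood progenitors, among them Kit, Tal1 and Lmo2, had an OCR in 8 of 8 cases in all 7 libraries. Those of 5 genes of muscle, nerve, liver, skin and T cells (Myod1, Neurod1, Alb, Krt14 and Cd3e) had none in any library. Of all 21911 protein-coding genes 55.9% had a promoter OCR in all 7 libraries and 38.2% had none in any.

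The upstream and downstream starts of Gata2 differed in every library. No OCR lay over the upstream start in any of the 7 libraries, and no summit fell within 500 bp of it. The nearest OCR ended 1782 bp before it and the next began 2.77 kb after it, apart from an OCR at +2.4 kb that was listed in HPC7-1 alone with a fold enrichment of 2.57 and is named after its values were seen. The downstream start lay in an OCR in 7 of 7 libraries, at chr6:88196661-88201738 after merging. Its fold enrichment was 60.5, 39.1, 43.1, 60.7, 27.8, 43.2 and 52.1 from HPC7-1, HPC7-2, HPC7-4 and so on to HPC7-8 (46.7 ± 11.9, SD, n = 7). HPC7-1 and HPC7-5 were the highest and HPC7-6 the lowest, with between 177 and 1292 reads at the summit. The mean percentile was 88.0 ± 2.55.

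The OCR at the downstream start was broad. The widest single OCR there ranged from 3427 to 5078 bp over the libraries. It was listed as a single OCR in 4 libraries, as 2 in HPC7-6 and HPC7-8, and as 3 in HPC7-4. The highest summit always lay after the downstream start, by between 140 and 167 bp in HPC7-2, HPC7-4, HPC7-6 and HPC7-7 and by between 390 and 415 bp in HPC7-1, HPC7-5 and HPC7-8. The start at 88200919 lay inside the merged OCR but was covered by a peak of its own library only in HPC7-1, HPC7-5 and HPC7-7. The start at 88204445 was covered in no library, and the nearest edge, 122 bp away, was that of the +9.5 kb OCR in HPC7-1. RefSeq places its second start of Gata2 at +4.77 kb, also within the broad OCR.

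**Figure D1:**
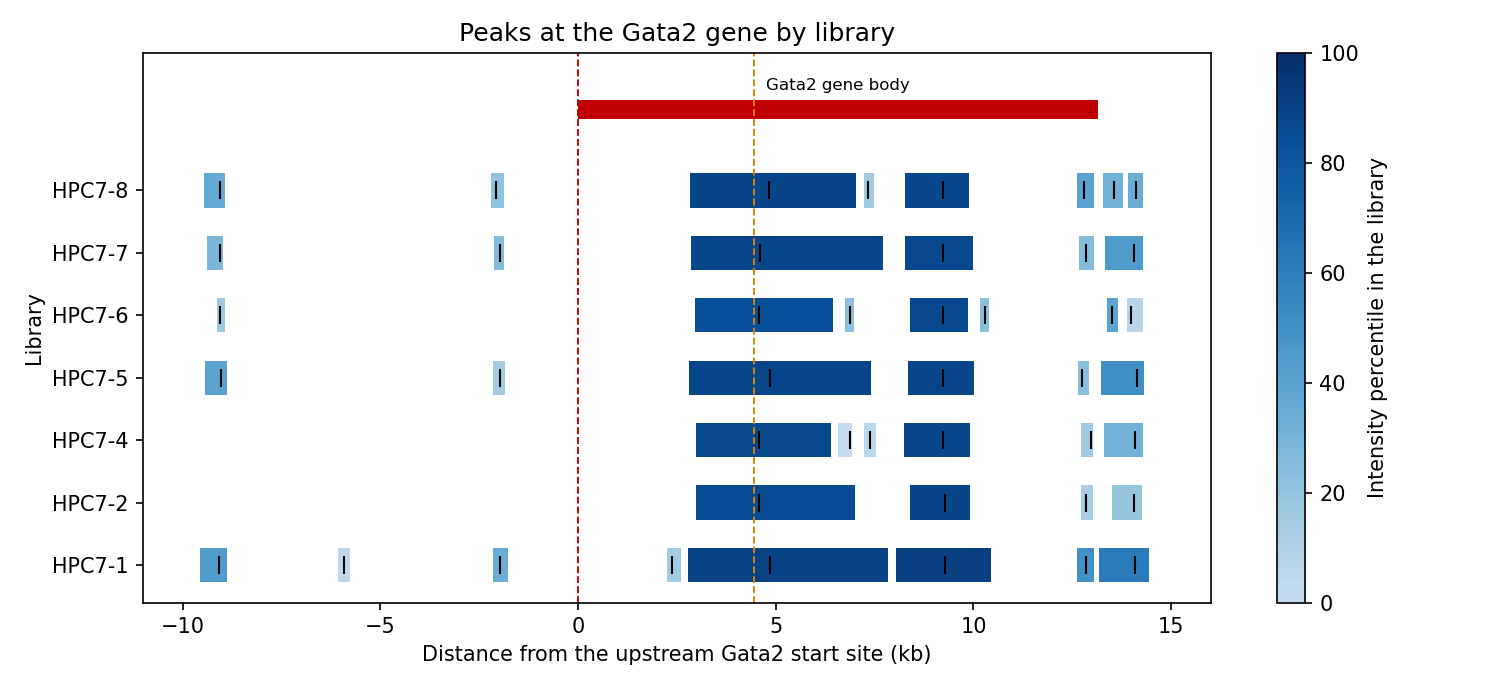
OCRs of each library over Gata2 and its near flanks, drawn by distance in kb from the upstream start, with 1 row of bars for each library shaded by percentile, ticks at the summits and dashed lines at the upstream (red) and downstream (orange) starts. No bar crosses the upstream start, all 7 libraries have a broad OCR at the downstream start and another near +9.5 kb, and only 4 have one near -1.8 kb.

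The -77 kb enhancer held the highest OCR of the window in 7 of 7 libraries. The merged OCR was at chr6:88115832-88118132, between Rpn1 and Gata2 and over no annotated gene, with its median summit at -76.9 kb. Its fold enrichment was 283, 227, 256, 322, 168, 179 and 228, in the same library order (237 ± 54.7, SD, n = 7). The highest library was HPC7-5 and the lowest HPC7-6. The reads at its summit numbered between 1071 and 6049. It stood at a percentile of 99.7 ± 0.106 of all OCRs of a library. Among the 40438 OCRs of the genome that were found in all 7 libraries and lay more than 3 kb from any transcript start, only 21 had a higher mean fold enrichment, and the median of these distal OCRs was 9.30. The printed bases hold TGATAA on the - strand, CATCTG on the - strand, TGTGGT on the - strand and CCGGAA at 2 places.

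The +9.5 kb enhancer was open in all 7 libraries. Its merged OCR, at chr6:88201941-88204323 in an intron of Gata2, had a fold enrichment of 61.8, 56.0, 50.9, 62.5, 39.0, 39.7 and 42.4, in the same library order (50.3 ± 10.1, SD, n = 7). HPC7-1 and HPC7-5 were again the highest and HPC7-6 the lowest. The mean percentile was 89.1 ± 1.42. The composite of E-box and GATA motif lay at chr6:88203185-88203204, at +9.29 kb, and was the only one of the gene body. The highest summit lay before the first base of the composite in every library, by 3 bp in HPC7-1, 13 bp in HPC7-2 and between 66 and 76 bp in the other 5. Among the 66979 OCRs found in all 7 libraries, only 45 (0.0672%) held this composite within 150 bp of the summit.

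**Figure D2:**
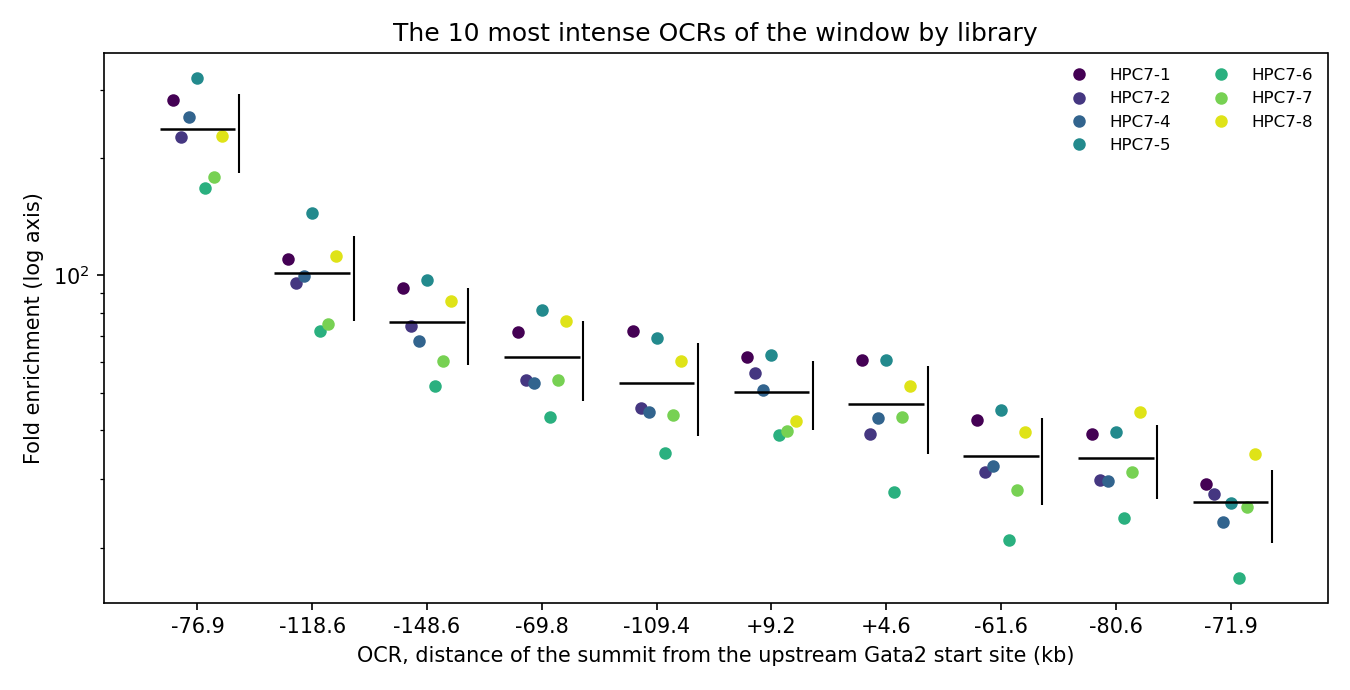
Fold enrichment (log axis) of the 10 highest OCRs of the Gata2 window, named by the distance of their summit in kb, with a point for each library, a line at the mean and a bar of 1 SD either way. The points of the -77 kb OCR lie between 168 and 322, and those at +9.2 kb (the +9.5 kb enhancer) and +4.6 kb (the downstream start) overlap.

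Over the 7 libraries the -77 kb OCR exceeded both sites of the gene body, which did not differ beyond their spread. Its fold enrichment was 5.13-fold that of the downstream start on average (range 4.14 to 6.02), or 0.71 ± 0.0671 on the log10 scale, higher in 7 of 7 libraries (exact permutation of signs, two-sided, p = 0.0156, adjusted p = 0.0234 by Benjamini-Hochberg over 3 comparisons). It was 4.69-fold that of the +9.5 kb OCR (range 4.05 to 5.37), again higher in 7 of 7 (exact permutation p = 0.0156, adjusted p = 0.0234). With 7 libraries 0.0156 is the smallest p that this permutation test can give. The ratio of the +9.5 kb OCR to the downstream start was 1.09-fold with a range from 0.813 to 1.43, and the +9.5 kb OCR was the higher in 5 of 7 libraries (exact permutation p = 0.312, also after adjustment). Names inside the peak lists begin with EtOH in 4 libraries and with VD in 3, which the sample labels do not explain and which were not taken as conditions. Within either set the -77 kb OCR exceeded the downstream start in every library, by 0.69 (EtOH) and 0.736 (VD) on the log10 scale on average. The +9.5 kb OCR minus the downstream start was 0.00787 (EtOH, range -0.09 to 0.146) and 0.0791 (VD, range 0.00898 to 0.156), and both libraries in which the downstream start was the higher were EtOH libraries.

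The sites just upstream of the gene were weak or not listed. No OCR was found at -3.9 kb or at -2.8 kb in any library, the nearest being 1683 and 583 bp away. At the -1.8 kb element an OCR was listed in 4 of 7 libraries, at chr6:88191674-88192109 after merging, and the nominal position itself was covered only in HPC7-1. Its fold enrichment was 3.46 in HPC7-1, 3.83 in HPC7-5 and 3.79 in both HPC7-7 and HPC7-8 (3.72 ± 0.17, SD, n = 4), and it was not listed in HPC7-2, HPC7-4 and HPC7-6. It stood at a percentile of 24.0 ± 7.90, and between 21 and 73 reads lay at its summit. With the same number of peaks taken from each library it was listed in only 1 library, at a percentile of 7.26. The start of Gm38708, a long noncoding RNA on the opposite strand, lies within 1 kb of this OCR.

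Of the 67 OCRs of the window, 27 (40.3%) were found in all 7 libraries, where 46.2% of all merged OCRs of the genome were. Another 15 were found in a single library, 14 of them in HPC7-1, the library with the highest background count of reads. As a description, with no test, those upstream of the gene were the higher. The median percentile of the shared OCRs was 81.9 for the 15 upstream and 47.1 for the 10 downstream. Over the whole window it was 69.6, and over all shared OCRs of the genome 66.2. A mean percentile above 75 was reached by 9 of the 15 upstream OCRs and by 1 of the 10 downstream. The 15 include the OCRs at -148.6 and -109.4 kb, which cover starts of Rab7 and Rpn1. None of the 10 lay within 1 kb of a start of Dnajb8 or Eefsec. Only 3 OCRs of the window (4.48%) were in the top 10% of a library in all 7, where 5.61% of the genome's OCRs were. These were the ones at -76.9, -118.6 and -148.6 kb.

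**Figure D3:**
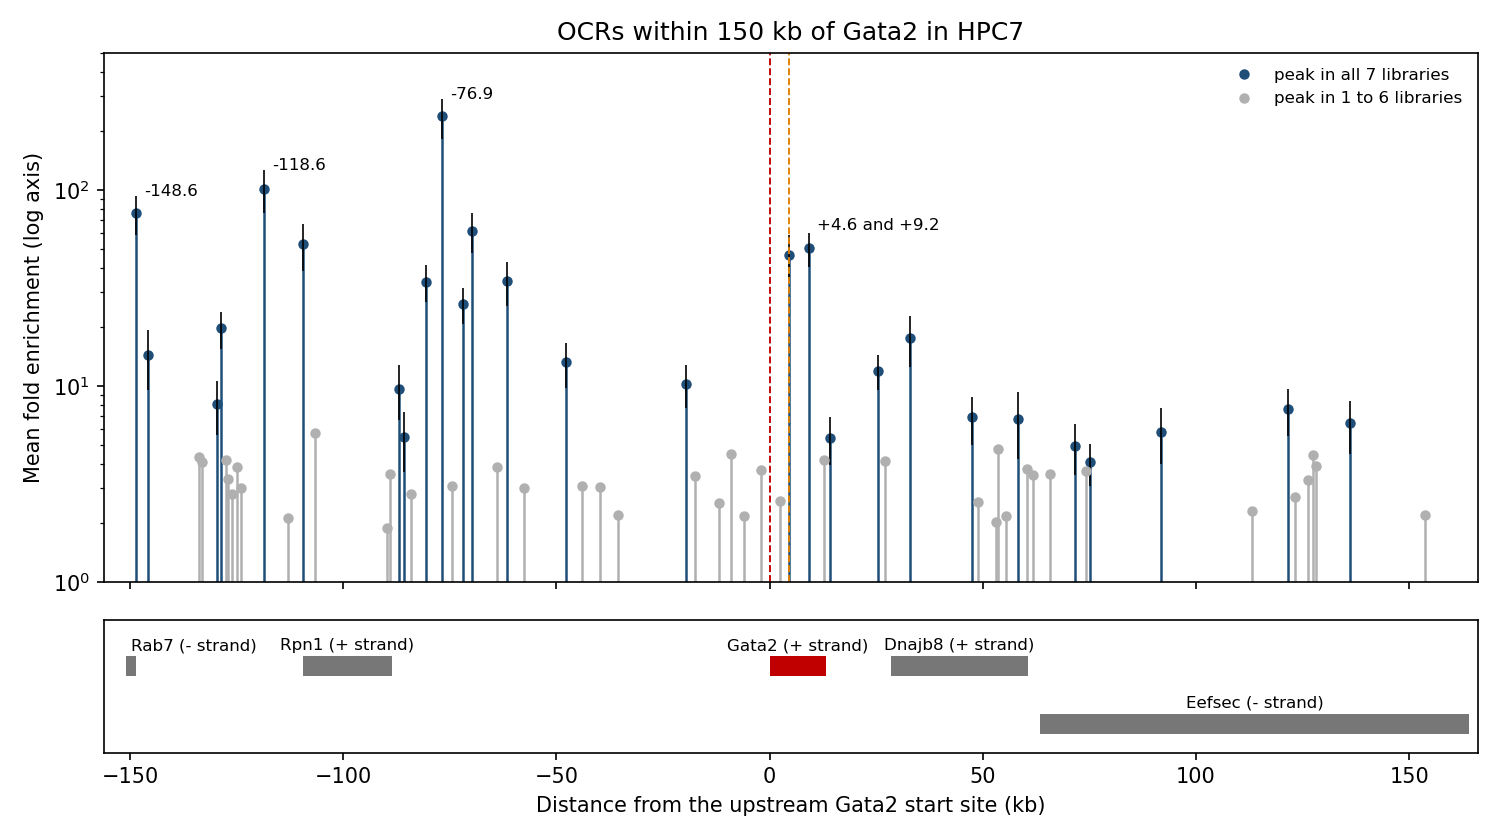
Mean fold enrichment (log axis) of all OCRs of the window by distance in kb from the upstream start of Gata2 (red dashed line; orange for the downstream start), with the genes drawn below and with error bars of 1 SD over the libraries for the 27 OCRs found in all 7. The -76.9 kb OCR is the highest at 237, and the OCRs downstream of the gene have means of at most 17.5.

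Around the -77 kb enhancer lay a group of OCRs. Between -90 and -60 kb there were 12, of which 7 were found in all 7 libraries, with their summits in no annotated gene. After the enhancer itself, the highest was at -69.8 kb (chr6:88123058-88124937). Its fold enrichment was 71.4, 53.8, 52.8, 81.6, 43.3, 53.7 and 76.3, in the same library order (61.8 ± 14.4, SD, n = 7). It was in the top 10% of its library in 4 libraries, and 1698 of the distal shared OCRs of the genome were higher. The OCR at -61.6 kb (chr6:88131368-88133317) had a mean of 34.3 ± 8.63, the one at -80.6 kb (chr6:88112665-88114828) of 34.0 ± 7.31 and the one at -71.9 kb (chr6:88121215-88122936) of 26.1 ± 5.53. The remaining pair, at -87.0 and -85.6 kb, were lower, at 9.69 ± 3.02 and 5.51 ± 1.86. Closer to the gene only the OCRs at -47.8 kb (13.2 ± 3.46) and -19.6 kb (10.3 ± 2.56) were found in all 7 libraries, and from -19.6 kb to the summit at the downstream start there was none for 24.2 kb.

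The second highest OCR of the window lay at -118.6 kb (chr6:88074731-88075896), between Rab7 and Rpn1. Rab7 encodes a small GTPase of late endosomes and Rpn1 a subunit of the oligosaccharyltransferase. Its fold enrichment was 111, 95.4, 99.8, 145, 71.8, 74.8 and 112, in the same library order (101 ± 24.8, SD, n = 7). HPC7-5 was the highest and HPC7-6 the lowest, as at -77 kb, and 563 of the distal shared OCRs of the genome were higher. Its summit varied by an SD of only 5.15 bp, against 46.8 bp at -77 kb and 138 bp at the downstream start. Its printed bases hold CCGGAA at 2 places and none of the GATA or E-box letters. The OCRs at -148.6 kb (75.8 ± 17.0) and -109.4 kb (52.9 ± 14.3) covered starts of these neighbouring genes, Rab7 and Rpn1 respectively.

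Farther upstream the OCR at -128.6 kb reached 19.7 ± 4.22, the one at -145.9 kb 14.4 ± 4.94 and the one at -129.6 kb 8.11 ± 2.49. Downstream of Gata2 the highest was at +32.9 kb (17.5 ± 5.09), in an intron of Dnajb8, a chaperone of the DnaJ family, and within 1 kb of a start of the antisense gene 1700031F10Rik. It was followed by the OCR at +25.4 kb (12.0 ± 2.40). The OCR at +14.1 kb had 5.44 ± 1.52, and those in introns of Dnajb8 at +47.4 and +58.3 kb had 6.91 ± 1.91 and 6.75 ± 2.499. Introns of Eefsec, the elongation factor for selenocysteine, held 5 more. They were at +71.7 kb (4.95 ± 1.45), +75.2 kb (4.08 ± 0.991), +91.7 kb (5.83 ± 1.84), +121.6 kb (7.62 ± 2.04) and +136.1 kb (6.45 ± 1.95). No OCR lay within 1 kb of a start of Dnajb8. In the 10 highest OCRs of the window HPC7-6 had the lowest fold enrichment in 10 of 10, and HPC7-5 the highest in 7, HPC7-8 in 2 and HPC7-1 in 1.

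The 27 shared OCRs were put in order of the mean of their log10 fold enrichment. In this order, 9 of the 26 neighbouring pairs differed by more than the SD of their difference, and 8 kept the same order in all 7 libraries. The order was set from the same values, so these counts describe it and test nothing. At the top of the order, the -76.9 kb OCR exceeded the -118.6 kb OCR by 0.371 ± 0.0356 on the log10 scale, and this in turn exceeded the -148.6 kb OCR by 0.125 ± 0.0362. The -148.6 kb OCR exceeded the -69.8 kb OCR by 0.0889 ± 0.0335. The OCR over the Rpn1 start and the +9.5 kb OCR did not differ beyond their spread (0.016 ± 0.0852), and the former was the higher in 4 of 7 libraries.

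The 40 OCRs found in fewer than 7 libraries were weak where they were found, with mean percentiles between 0.373 and 44.5. Of these, 39 were listed in HPC7-1, 22 in HPC7-8 and 2 in HPC7-6. The highest mean was 5.76, at -106.7 kb in 6 libraries, an OCR named after its values were seen. No value in any library exceeded 7.86, while shared OCRs went down to 2.62 in a library. The number of merged OCRs of the window with a peak was 66, 35, 34, 40, 29, 37 and 49, in the same library order. The longest lists of the genome, those of HPC7-1 and HPC7-8, also gave the most here.

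OCRs were denser in the window than over the genome. The density of OCRs per kb in a library, as listed before merging, was 3.63 ± 0.422 times that of the genome (range 3.02 to 4.32), above 1 in 7 of 7 libraries, or 1.85 ± 0.168 on the log2 scale (exact permutation of signs, two-sided, p = 0.0156). The mean ratio was 3.64 in the 4 EtOH libraries and 3.60 in the 3 VD libraries. Among the windows of 21938 protein-coding genes made the same way, that of Gata2 had 8.62 shared OCRs per 100 kb against a median of 4.78, at the percentile of 79.1. The median percentile of the peaks within 10 kb of the gene body, also as listed before merging, was 37.5 ± 11.6. That of the other peaks was 50.9 ± 3.81. The difference of -13.4 ± 14.3 rested on 4 to 8 near peaks a library and was negative in 5 of 7 (exact permutation p = 0.0625). In HPC7-4 the OCR at the downstream start also gave peaks at percentiles of 0.455 and 5.54, each counted separately. In HPC7-6 the OCRs at the downstream start, +9.5 kb and +14.1 kb gave a further, lower peak at 23.2, 23.2 and 6.26. These libraries had the lowest differences, -32.7 and -29.9. Whether the difference holds with each merged OCR as a single member was not tested. On average the difference was -16.8 in the EtOH libraries, where all 4 values over the listed peaks were negative, HPC7-6 with its OCRs split as above. In the VD libraries it was -8.88 through HPC7-4 (-32.7), whose OCR at the downstream start was split. Without HPC7-4 it was 3.05, a value added after seeing the data. The sets were not compared with merged OCRs. With near taken as 20 kb the difference over all 7 libraries turned to 4.13 (exact permutation p = 0.391).

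The letters of the motifs were counted in the shared OCRs of the window and of the genome. Within 150 bp of the median summit AGATAA was found in 3 of 27 (11.1%, genome 19.4%), TGATAA in 3 (11.1%, genome 13.4%), CATCTG in 6 (22.2%, genome 24.2%) and CAGCTG in 3 (11.1%, genome 20.03%). CAGGAA was found in 12 (44.4%, genome 42.2%), TGTGGT in 12 (44.4%, genome 33.1%) and CCGGAA in 7 (25.9%, genome 8.75%). These are counts over 27 OCRs and were not tested. The median GC content of these bases was 56.7% against 50% in the genome's shared OCRs, and it was 70.7% around the summit at the downstream start.

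Of the 6 GATA genes 3 had a promoter OCR in all 7 libraries and 3 had none, counting the highest OCR within 1 kb of any start, where 55.9% of all protein-coding genes had one in all 7. Gata2 and its relatives of blood, Gata1, which drives the erythroid and megakaryocytic lineages, and Gata3, best known from T cells, had one in all 7 libraries. Gata4, Gata5 and Gata6, which act in heart and endoderm, had none in any. The fold enrichment was 114 ± 24.6 for Gata3, 52.2 ± 8.84 for Gata2 and 17.1 ± 4.17 for Gata1 (SD, n = 7). The value for Gata2 takes the higher of the OCRs at the downstream start and at +9.5 kb, because the fourth start lies within 1 kb of the latter. The OCR of the downstream start alone had a percentile of 25.8 among the 12255 promoters open in all 7 libraries.

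**Figure D4:**
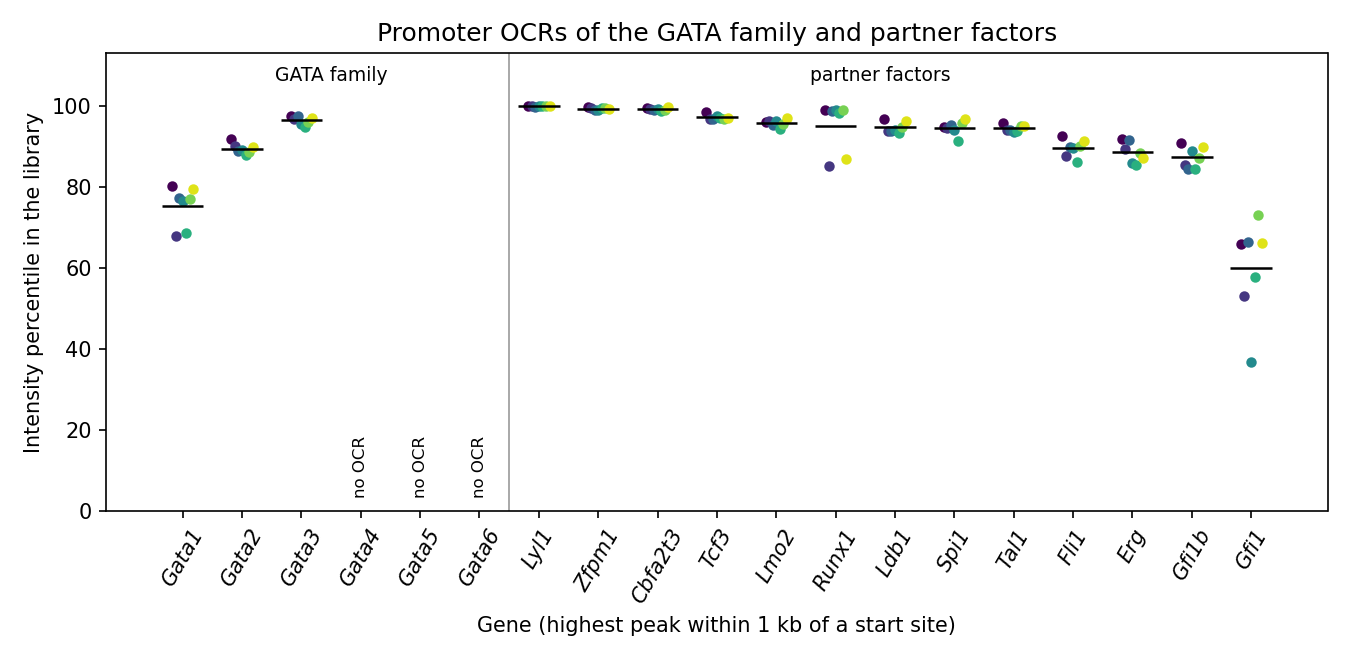
Percentile of the highest promoter OCR within its library for the GATA family and for factors that work with GATA2 in blood, with a point for each library (same colors as the plot of the leading OCRs) and a line at the mean. Lyl1 is at the top with a mean of 99.9, Gfi1 is the lowest of the partners at 59.9, and Gata4, Gata5 and Gata6 have no OCR.

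Factors that act with GATA2 in progenitors had a promoter OCR in all 7 libraries in 13 of 13 cases, beside 55.9% of all protein-coding genes. They include 7 of the 8 genes of blood progenitors counted above, so these counts are not separate results. Their median percentile was 94.7, where 93.4 was the median of all protein-coding promoters open in all 7 libraries. Lyl1, an E-box binding protein related to Tal1, was the highest (266 ± 56.0). Tal1 itself had 88.3 ± 12.8, and the bridging proteins Lmo2 and Ldb1 of the same complex had 104 ± 21.7 and 92.0 ± 19.6. Zfpm1, the cofactor FOG that binds GATA proteins, had 186 ± 23.1, and the corepressor Cbfa2t3 had 184 ± 39.3. Runx1 had the largest SD of fold enrichment (128.2 ± 69.1). Its values were 36.0 in HPC7-2 and 37.4 in HPC7-8, and between 115 and 209 in the other libraries. In percentile Gfi1 varied more, with an SD of 12.1 against 6.28 for Runx1. The ETS factors Fli1, Erg and Spi1 had 54.1 ± 12.3, 48.5 ± 12.8 and 91.3 ± 20.1, and Tcf3, the E protein partner of Tal1, had 124 ± 27.1. The repressors Gfi1b and Gfi1 were the lowest, at 43.4 ± 12.6 and 9.24 ± 2.75. The -77 kb OCR of Gata2, at 237 ± 54.7, exceeded 12 of these 13 promoter means.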

How the data were processed

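ATAC-seq peaks of 7 HPC7 libraries were used as deposited. The authors had removed adapters (Cutadapt), mapped reads to mm10 (BWA-mem) and called peaks library by library (MACS2), and versions and options are not given in the sources used here. Each deposited peak has a fold enrichment (a ratio of summit reads to background, each with a pseudocount of 1), a -log10 p-value and a -log10 q-value, a score derived from the latter, and a summit offset. The lowest -log10 q listed lay between 1.36 and 1.73. No scaling between libraries was applied, so percentiles within a library were given beside fold enrichments.

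Overlapping peaks (1 bp or more) were merged over libraries, and a merged OCR took the highest fold enrichment of each library in it. Reads at the summit were computed from the step of the fold enrichments. Differences over libraries were tested with an exact two-sided sign-flip permutation test. Summits were set against GENCODE M21 and RefSeq GRCm38.p6 after matching chromosome lengths. Motifs were searched on both strands. All OCRs found in all 7 libraries are named, together with those at Gata2 starts and known elements. The members, elements and gene lists were chosen with earlier results of these data known. Some items are not reported here. The libraries are culture batches of 1 line, and p-values measure the spread between these batches.

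The interval and permutation functions were tested on simulated data and against bedtools 2.31.1. Python 3.11.15, numpy 2.4.6, pandas 2.3.3, matplotlib 3.10.9, pysam 0.24.0 and samtools 1.23.1 were used. The alternatives tried were peaks with -log10 q from 5 upward, an equal number of peaks a library, flanks of 100 and 50 kb, joining by summits, -log10 p or percentiles as intensity, other limits of near, 3 kb promoters, and each library left out.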

Additional observations from a re-analysis of the deposited data

How the results depend on the processing

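Of 111 alternative values of 13 results, all but 6 kept their direction and side of the threshold, stayed within the spread between libraries or, for counts of OCRs, within 1.5 times the count reported. The 67 OCRs of the window became 46 with an equal number of peaks from each list, 45 with 100 kb flanks, 78 with joining by summits and between 55 (without HPC7-1) and 67 with each library left out. With 50 kb flanks the window held 26 OCRs, 9 of them in all 7 libraries, fewer because the window is smaller. With the 84593 most significant peaks of every library the percentile was 85.4 at the downstream start, 86.4 at +9.5 kb and 7.26 at -1.8 kb, where the OCR was then listed in 1 library. The difference between near and far OCRs reversed to 4.13 with near taken as 20 kb (exact permutation p = 0.391), and the cause was not tested. With near taken as 5 kb it was -7.98 (exact permutation p = 0.203), and it lay between -16.4 and -10.2 with each library left out. The density of the window, on the log2 scale, lay between 1.81 and 1.89 with each library left out (exact permutation p = 0.0312, the smallest that 6 libraries allow). The lowest fold enrichment listed was 1.68 in HPC7-1, while elsewhere it was 2.13 or more, and no weaker site can be judged from these lists. No paired analysis was possible because there is 1 group of libraries, so that replicate numbers pair no samples. The differences between sites were already taken within each library.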

Other observations

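Over the 7 libraries, the promoters whose log10 fold enrichment, after subtracting the library median over promoters, was most like that of Gata2 were those of Zfp236 (Pearson r = 0.939), Oaz1 (0.934), Lsm3 and Xpc (0.929, the same OCR) and Mtif3 (0.925). These are the highest of 12254 promoters compared with it over 7 libraries that differ in background, and they are given as a description. The value of Gata2 is that of the +9.5 kb OCR in 5 libraries and that of the downstream start in 2, HPC7-7 and HPC7-8, so the likeness rests on a mixed profile.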
